A study of Canis lupus familiaris with 13 samples.

Results

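The genes described here encode the subunits and assembly factors of the mitochondrial respiratory chain and of ATP synthase. They are the genes whose symbol in the array annotation begins with NDUF, SDHA to SDHD, UQCR, COX followed by a digit, or ATP5, together with CYC1. Of the 6540 genes that the annotation names with a single symbol, 65 met this rule, and they were covered by 118 probe sets. Each gene was represented by its probe set of highest mean signal, and 62 of the 65 passed the filter on low signals and were tested. By complex, 6 tested genes encode core subunits of complex I, 22 its accessory subunits, 3 complex II, 7 complex III, 5 complex IV, 9 complex V and 10 assembly factors. NDUFA4 was placed with complex IV and COX7A2L, which joins complexes III and IV, likewise.

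RNA of 13 dog heart tissue samples was measured on a canine expression array, with 1 array each. The controls were the mongrels P1, P4 and P9. The other groups were 3 Dobermans (K, L and R) and 4 Boxers (1 to 4) with dilated cardiomyopathy, in which the ventricles dilate and contract weakly, and 3 mongrels whose hearts were paced (LV01, LV02 and LV04). The labels named no genotype, age or chamber and no treatment other than pacing, and did not give the rate or length of pacing. No healthy Doberman or Boxer was among the samples, so breed and disease cannot be told apart in a comparison with the mongrel controls. Nothing in the labels says more about where the samples of a group came from than their separate names, so p-values measure the spread between these samples.

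The respiratory chain sits in the inner mitochondrial membrane and passes electrons from NADH and succinate to oxygen. Complex I takes electrons from NADH and complex II from succinate, and both hand them to ubiquinone. Complex III passes them on to cytochrome c, and complex IV passes them to oxygen. Complexes I, III and IV pump protons, and complex V, ATP synthase, lets the protons flow back and makes ATP. Heart muscle is packed with mitochondria and depends on this chain for most of its ATP. All genes described here lie in the nucleus. The subunits encoded by mitochondrial DNA are not analysed here.

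Some arrays differed in quality. The GAPDH control probe sets near the 3' end gave more signal than those near the 5' end, a sign of broken RNA, by a ratio of 2.10 in Doberman L and 3.62 in R. That ratio was 1.08 in K and 0.967 to 1.09 on the other 10 arrays. The log2 ratio of 3' to 5' signal of the actin control probe sets set R apart but not L. It was -0.085 in R, -1.916 in L, -1.897 in K and -3.173 to -1.556 on the other 10 arrays. The median signal was 132.1 to 146.2 in controls and Boxers, 160.3 to 234.4 in Dobermans and 207.6 to 219.3 in paced samples. Of 13 markers of heart muscle cells 12 were on the array, and all 12 were above the filter. Their summed signal ran from 247863 to 360943 in controls, 267790 to 525586 in Dobermans, 253978 to 284006 in Boxers and 217615 to 245443 in paced samples. Precision is limited by the number of arrays. In a tissue sample fewer cells of a type and less RNA per cell cannot be told apart.

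In the Dobermans 23 of the 62 genes fell against the controls and 0 rose. Here and below a gene rose or fell where limma gave an adjusted p under 0.05 over all 14302 probe sets tested. That is 37.1% of these genes, whereas 14.1% of all 5240 genes tested fell and 11.9% rose. The median log2 change was -0.46 over the 62 genes and 0.04 over all genes, and 54 of the 62 were negative. All 3 Dobermans lay below all 3 controls in 29 of the 62 genes, or 46.8%, against 15.7% of all genes. By complex, 4 of 6 core and 7 of 22 accessory subunits of complex I fell, as did 3 of 3 subunits of complex II, 3 of 7 of complex III, 2 of 5 of complex IV, 2 of 9 of complex V and 2 of 10 assembly factors. The median log2 changes were -1.12, -0.48, -1.02, -0.39, -0.58, -0.42 and -0.21 in that order. Differences between complexes were not tested.

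The Doberman count rested on few arrays. It was 7 without Dobermans L and R, 9 without L alone, 7 without control P1 and 8 without control P4. It was 1 with the GAPDH ratio as a covariate, which largely goes with the Doberman group, and 0 when only Dobermans and controls were fitted. Calls over all genes dropped too, from 737 lower to 293 without L, 288 without P1, 335 without P4, 109 without L and R, 21 with the covariate and 3 with only those groups fitted. The median log2 change over the 62 genes was -0.44 without L and R, -0.37 without L, -0.42 without P1, -0.40 without P4 and -0.63 with the covariate, where 59 of the 62 were negative.

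**Figure D1:**
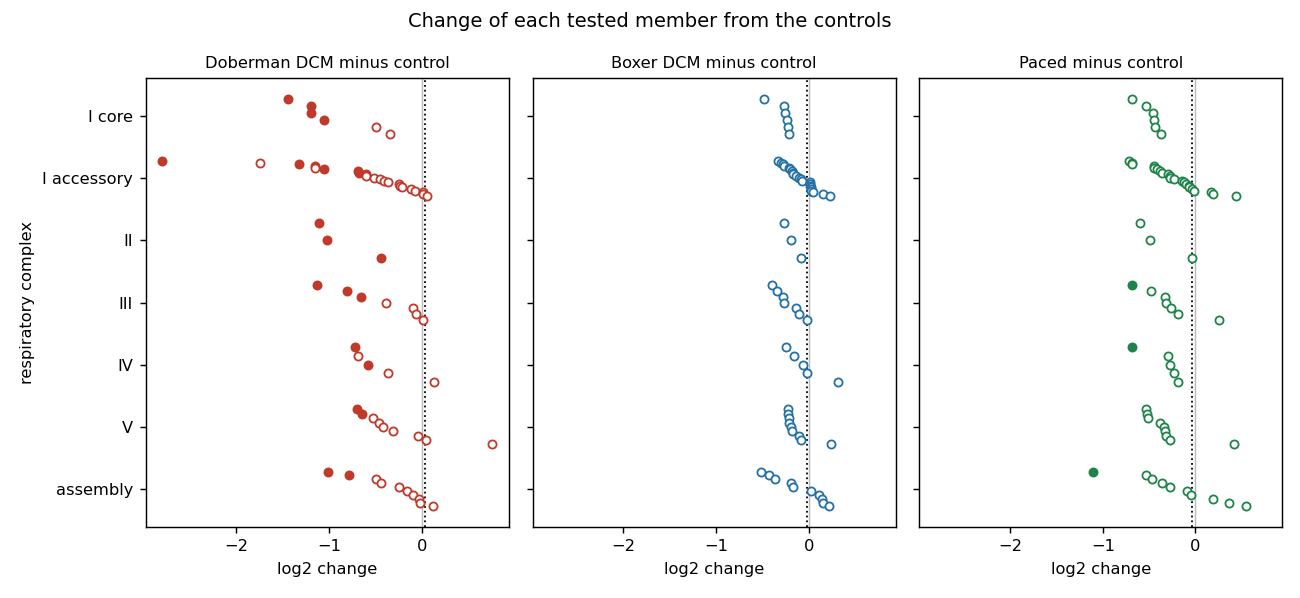
Log2 change of each of the 62 tested genes (x axis) by complex (y axis) in Dobermans, Boxers and paced samples against the same 3 controls. Each circle is 1 gene, filled where the adjusted p was under 0.05, and the dotted line is the median of all genes tested. Filled circles number 23 in Dobermans, 0 in Boxers and 4 in paced samples, and all lie on the negative side.

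The core subunits of complex I carry its flavin, its iron-sulphur clusters and the ubiquinone site. NDUFS8, an iron-sulphur subunit on the path to ubiquinone, had signals of 10231, 10164 and 9308 in controls P1, P4 and P9. Its signals were 5500, 5345 and 3713 in Dobermans K, L and R. They were 7928, 9169, 8820 and 8309 in Boxers 1 to 4, and 6944, 7077 and 7703 in paced LV01, LV02 and LV04. The Dobermans were the lowest samples without overlap, the paced samples came next, and the Boxers reached up to just below the lowest control. The log2 change in Dobermans was -1.05 ± 0.17 (SE), or 2.07-fold lower, with an adjusted p of 0.00463.

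NDUFV1, NDUFV2 and NDUFS1 together form the part of complex I that takes electrons from NADH. NDUFV2 signals were 15336, 15712 and 13327 in controls and 8522, 4168 and 7557 in Dobermans. They were 11671, 12752, 12964 and 13357 in Boxers and 9955, 10765 and 9918 in paced samples. Each Doberman was below each sample of every other group. NDUFV2 fell by 1.19 ± 0.22 on the log2 scale in Dobermans (adjusted p 0.00727). NDUFS1 signals were 8411, 9110 and 8071 in controls and 5836, 3092 and 1685 in Dobermans, so that K lay nearest the controls and R farthest. NDUFS1 was 2.72-fold lower (log2 change -1.44 ± 0.31, adjusted p 0.0106). NDUFV1, which holds the flavin, was 2.29-fold lower (adjusted p 0.0185), at 5815, 1985 and 4475 against 9475, 9052 and 7257. Without control P1 its adjusted p was 0.061, and without P4 0.056.

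Both other core subunits had changes that did not pass. NDUFS7 signals were 16190, 17456 and 10696 in controls and 9737, 7906 and 14033 in Dobermans, and R lay above control P9. NDUFS3 signals were 15185, 13983 and 13028 in controls and 8200, 8588 and 19220 in Dobermans. K and L were below all controls and R was above them, and the log2 change was -0.34 ± 0.26.

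**Figure D2:**
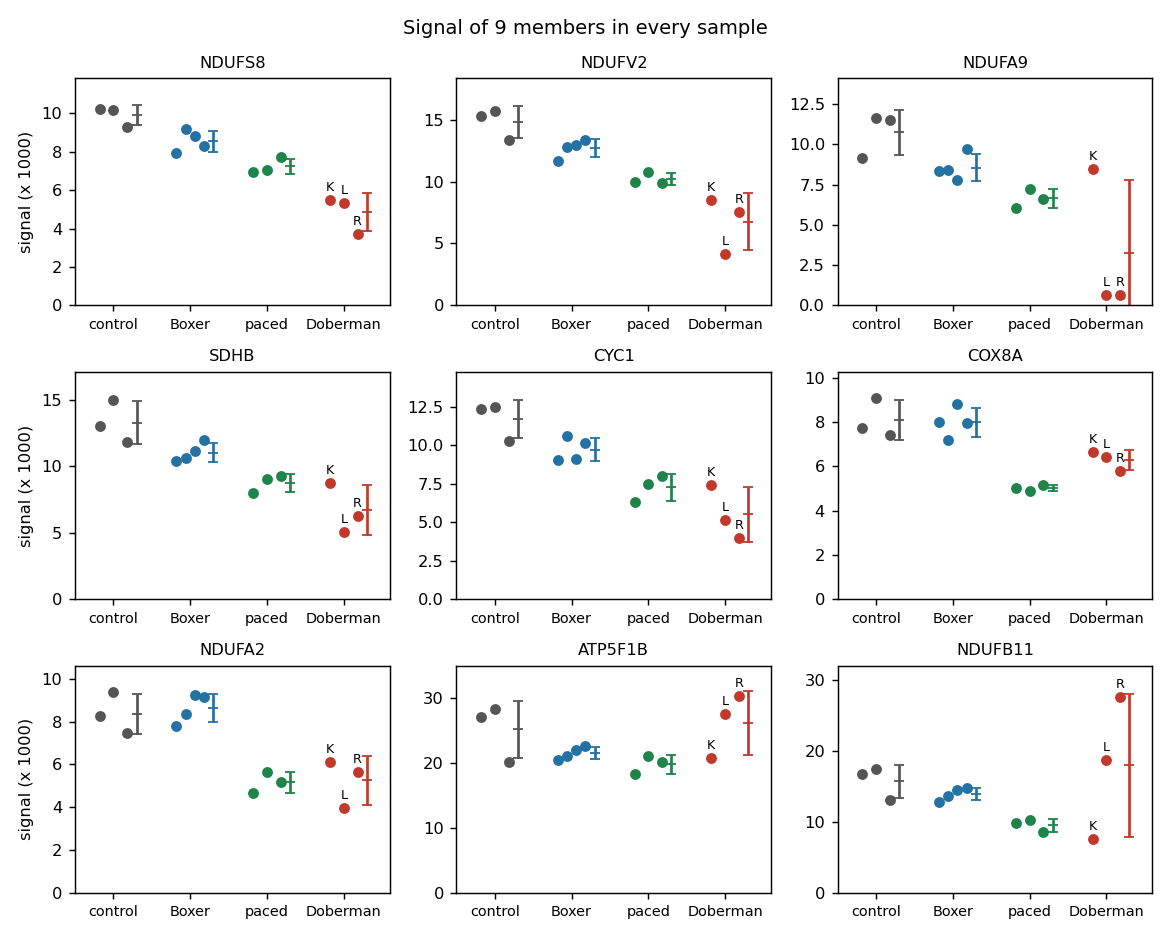
Signal (y axis, scaled as marked, from 0) of 9 genes in every sample by group. Points are samples, with Dobermans K, L and R marked, and bars give the mean and SD of each group (3 samples, 4 for Boxers; the lower SD bar of NDUFA9 in Dobermans runs past 0). NDUFS8, NDUFV2, SDHB and NDUFA2 have all 3 Dobermans below all controls, and NDUFB11 runs from 7546 in K to 27662 in R.

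The accessory subunits stabilise complex I. NDUFA9, which lies beside the ubiquinone site, had the most negative change of all 62 genes. Its signals were 9152, 11621 and 11497 in controls and 8453, 657 and 624 in Dobermans. They were 8368, 8408, 7756 and 9700 in Boxers and 6066, 7251 and 6605 in paced samples. L and R stood far below every other sample, while K lay within the range of the Boxers. The log2 change of -2.80 ± 0.68 (adjusted p 0.0151) became -2.20 (0.065) without L, -2.17 (0.057) without R and -0.34 (0.34) without both.

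NDUFAB1, the mitochondrial acyl carrier protein, differed less between Dobermans. Its signals were 12047, 12087 and 11251 in controls and 7583, 3874 and 6257 in Dobermans, and all 3 Dobermans were below every sample of the other groups. It was 2.07-fold lower (log2 change -1.05 ± 0.21, adjusted p 0.0089). NDUFB5 and NDUFB3, subunits of the membrane arm, were 2.50-fold and 2.21-fold lower (adjusted p 0.0375 and 0.0401). Doberman L was the lowest for both, at 1128 for NDUFB5 where K and R were at 5815 and 4305, and at 2369 for NDUFB3 where K and R were at 8691 and 9319. Without L the log2 changes were -0.61 (adjusted p 0.061) for NDUFB5 and -0.51 (0.051) for NDUFB3. Of the 13 fits that left out 1 sample, the call was lost in 6 for NDUFB5 and in 11 for NDUFB3. NDUFA2, an accessory subunit of the NADH-oxidising part, fell by 0.69 ± 0.19 (adjusted p 0.0208), NDUFB6 by 0.68 ± 0.23 (0.0467, with groups that overlapped) and NDUFS4 by 0.60 ± 0.18 (0.0286). NDUFB6 was lost in 11 of those 13 fits. Without L, P1 or P4 the adjusted p of NDUFA2 lay between 0.058 and 0.072.

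NDUFB11, in the membrane arm, showed how far the Dobermans could part. Its signals were 16735, 17458 and 13103 in controls and 7546, 18760 and 27662 in Dobermans. K was the lowest of all 13 samples and R the highest, and the log2 change over the group was 0.01 ± 0.34. NDUFB8 and NDUFA12 did not pass, with log2 changes of -0.45 and -0.41. NDUFC1 was left out by the filter, with signals of 9 to 92 in controls, 96 to 560 in Dobermans, 17 to 47 in Boxers and 188 to 320 in paced samples.

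Complex II oxidises succinate and is shared with the citric acid cycle. All 3 of its measured subunits fell in Dobermans, and the flavin subunit, SDHA, is not analysed here. SDHB, the iron-sulphur subunit, had signals of 13009, 14995 and 11817 in controls and 8720, 5071 and 6240 in Dobermans. They were 10368, 10585, 11152 and 11941 in Boxers and 7977, 9005 and 9229 in paced samples. Every Doberman and every paced sample lay below every control, and the Boxers overlapped the lowest control. SDHB was 2.03-fold lower in Dobermans (log2 change -1.02 ± 0.19, adjusted p 0.0073). The membrane anchors SDHC and SDHD had log2 changes of -1.11 ± 0.27 (0.0145) and -0.44 ± 0.14 (0.0394). SDHC signals were 7429, 3164 and 6070 in Dobermans against 9479 to 12977 in controls, and without control P1 its adjusted p was 0.053. SDHD passed in only 6 of 24 alternative settings and was lost without any of the 13 samples apart from Doberman K.

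In complex III, CYC1, cytochrome c1, had signals of 12379, 12490 and 10275 in controls and 7447, 5166 and 3941 in Dobermans. They were 9064, 10609, 9104 and 10155 in Boxers and 6313, 7475 and 8025 in paced samples. Dobermans and paced samples were all below the controls and overlapped each other. CYC1 was 2.18-fold lower in Dobermans (log2 change -1.13 ± 0.21, adjusted p 0.00727). UQCRFS1, the Rieske iron-sulphur protein, fell by 0.81 ± 0.26 (adjusted p 0.0395) with overlapping groups: K, at 22458, lay among the controls at 19263 to 25808, and L and R were at 10230 and 9738. Its log2 change was -0.03 without L and R, and its adjusted p was above 0.05 when any sample but K was left out. UQCRC2, a core protein, fell by 0.66 ± 0.17 (0.0191), at 12319, 9045 and 13910 against 17733 to 18959, and its adjusted p lay between 0.053 and 0.060 without L, P1 or P4. UQCRH, the hinge protein, had signals of 11056, 16383 and 21520 in Dobermans and 14440 to 16296 in controls, and its log2 change was 0.01.

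Complex IV was covered thinly, with 5 tested genes. NDUFA4, a subunit once assigned to complex I, had signals of 20637, 21825 and 17414 in controls and 14916, 9144 and 12750 in Dobermans, without overlap. It fell by 0.72 ± 0.19 (adjusted p 0.021), and without L, P1 or P4 the adjusted p was 0.065 to 0.069. COX5A, a nuclear-encoded subunit of the matrix side, fell by 0.58 ± 0.19 (0.0379), at 16391, 12338 and 17084 against 18393 to 27038, and was lost in 9 of the 13 fits that left out 1 sample. COX8A, a small membrane subunit, had a log2 change of -0.36 (adjusted p 0.089), although its 3 Dobermans, at 6639, 6439 and 5794, were below the controls at 7419 to 9121. COX7A2L signals were 3102, 1200 and 884 in Dobermans against 2359 to 2510 in controls, so that K was above all controls and L and R below them. COX4I1 had signals of 227 to 289 in controls and 213 to 397 in Dobermans (log2 change 0.13). COX4I2 and COX6A2, the latter the isoform of heart and skeletal muscle, were left out by the filter, with control signals of 45 to 89 and 11 to 106. COX6A1 and both forms of COX7A are not analysed here.

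In complex V, ATP5F1A, the alpha subunit of the catalytic head, fell by 0.70 ± 0.22 (adjusted p 0.0339). Its signals were 25925, 27374 and 19793 in controls and 17459, 10225 and 18215 in Dobermans, and the adjusted p was between 0.099 and 0.10 without L, P1 or P4. ATP5MC2, 1 of the 3 genes for the rotating c subunit, fell by 0.64 ± 0.18 (0.0226), at 6179, 7738 and 6824 against 9360 to 11569, and its adjusted p was 0.077 without P1 and 0.070 without P4. The other c-subunit genes, ATP5MC1 and ATP5MC3, had log2 changes of -0.46 (0.066) and -0.42 (0.22). ATP5F1B, the catalytic beta subunit, had signals of 27070, 28304 and 20227 in controls and 20727, 27549 and 30304 in Dobermans. K lay at the lower end of the controls and R above them, and the log2 change was 0.05. ATP5PO, in the stalk that holds the head still, had the most positive value of the 62 genes, at 0.76 (adjusted p 0.087), with 5873, 14874 and 14948 in Dobermans against 5725 to 7886 in controls.

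Of the assembly factors, COX15, which makes haem a for complex IV, was 2.01-fold lower (adjusted p 0.0446), with signals of 308, 102 and 246 in Dobermans and 360 to 508 in controls. Its call was lost in 10 of the 13 fits that left out 1 sample. NDUFAF1, an early factor of complex I, fell by 0.78 ± 0.22 (0.0235), at 1676, 866 and 1570 against 2192 to 2334. Its adjusted p lay between 0.059 and 0.063 without L, P1, P4 or P9. NDUFAF6 and SDHAF2 did not pass, with log2 changes of -0.09 and -0.03.

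The calls of NDUFS8, NDUFV2, NDUFS1, NDUFAB1, SDHB and CYC1 held in all 13 fits that left out 1 sample. All these calls were lost in limma when Boxers and paced samples were dropped from the fit (adjusted p 0.108 to 0.114). They were likewise lost when the fit took the GAPDH ratio into account (0.073 to 0.219), where their log2 changes were -1.07 to -0.51. With Doberman K as the only Doberman, NDUFS8 and NDUFV2 had log2 changes of -0.85 and -0.79. In that fit 7 of the 62 genes fell, namely NDUFB10, NDUFB11, NDUFS3, NDUFS4, NDUFS8, NDUFV2 and UQCRC2, and 4 of them are among the 23 that fell with all Dobermans. Of all genes 109 of 5268 fell in that fit. All 23 were negative in K. The lone sample is assumed there to vary like the other groups.

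Taken array by array, K, L and R had different profiles. The genes below all controls numbered 53 of the 62 in K, 50 in L and 33 in R. Of all 5240 genes 1638 were below all controls in K, 2129 in L and 1966 in R. In K the median log2 difference from the control mean over the 62 genes was -0.44 with an interquartile range of 0.30. In L the median was -0.81 with an interquartile range of 0.96, and in R it was -0.21 with a range of 0.91. K was thus even across genes, and L and R were spread widely. Over all genes K also had the narrowest interquartile range, 0.62, with 1.44 in L and 1.28 in R. R had a complex V median of 0.28 and a complex I core median of -0.95. In L the complex II median was -1.38 and in K -0.60. The part of the GAPDH ratio, which was higher in R than in L and higher in L than in K, was not tested.

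**Figure D3:**
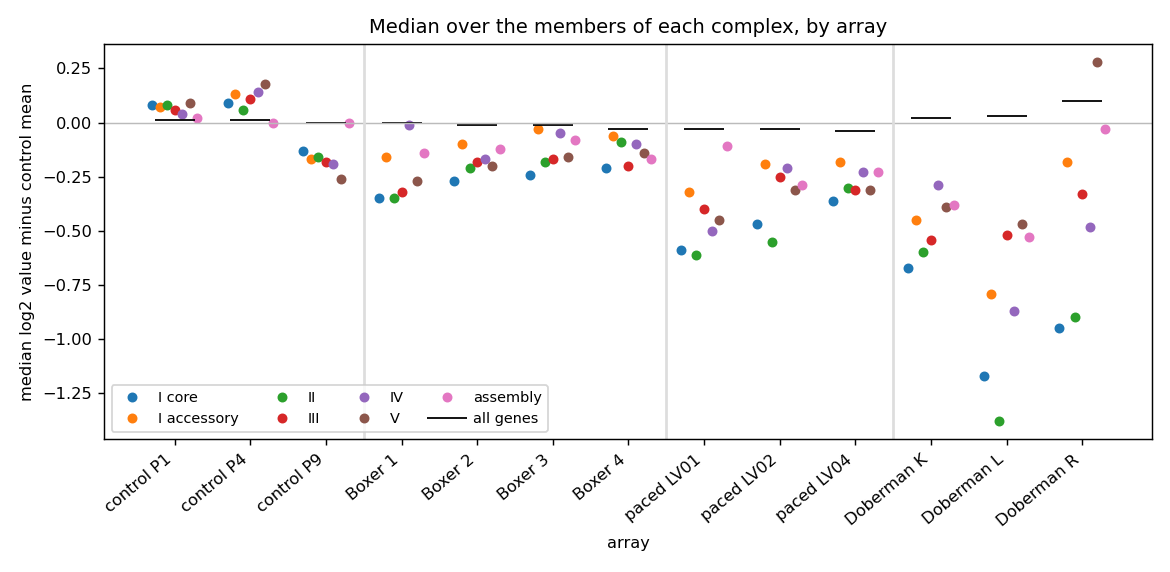
Median log2 value minus the control mean (y axis) over the tested genes of each complex on every array (x axis), with the median of all genes as a black dash. The 4 Boxers and 3 paced samples keep their complexes close together below 0, and Doberman R runs from -0.95 for the complex I core to 0.28 for complex V.

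Several genes were measured by more than 1 tested probe set, and these parted in L and R. ATP5F1A had 4, with log2 changes in Dobermans of -0.70, -3.23, -0.51 and -2.33 in order of mean signal. In K all 4 lay between -0.77 and -0.32. In L they spread over a far wider range, down to -5.40, and in R they lay between -3.52 and -0.20. The 4 probe sets therefore agreed closely in K and differed widely in L and R. UQCRC2 had a second probe set that stood far lower in L (-4.40) and R (-4.61) than in K (-0.85), beside its representative at -0.57, -1.01 and -0.39. ATP5F1C, the central stalk subunit, had a log2 change of -0.04 by its representative, and 2 other probe sets that fell had -1.11 and -2.68.

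Over all 102 tested probe sets of these genes, 36 fell in Dobermans and 0 rose. Of all 14302 tested probe sets 1597 fell and 2047 rose. Of the 25 genes with several tested probe sets, NDUFAB1 and SDHC fell by all of them. ATP5F1C, NDUFAF5, NDUFB8, UQCRC1 and UQCRH fell by another probe set and not by their representative, so the counts for complexes I, III and V and for assembly factors depend on the probe set chosen. The second UQCRC1 probe set had a log2 change of -1.05 where the first had -0.06, and the third UQCRH probe set -1.50 where the first had 0.01. NDUFS3 was an exception, with 3 probe sets of similar values in each Doberman (-0.77 to -0.49 in K, -0.71 to -0.52 in L and 0.45 to 0.72 in R). Of the representatives, 24 carry the suffix _s_at and 2 _x_at, which marks probe sets that may detect related transcripts as well.

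**Figure D4:**
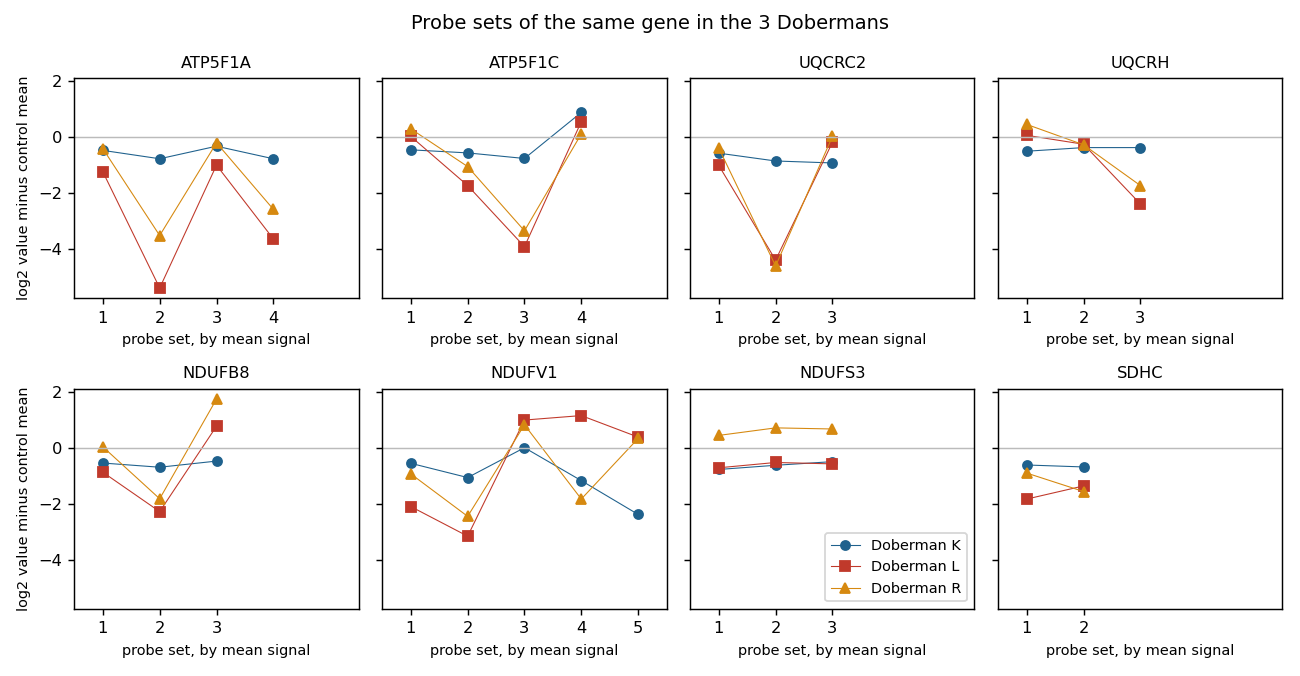
Log2 value minus the control mean (y axis) in Dobermans K, L and R for each tested probe set (x axis, from highest to lowest mean signal) of 8 genes. The ATP5F1A probe sets lie between -0.77 and -0.32 in K and reach down to -5.40 in L, and the NDUFS3 probe sets keep to similar values in each Doberman.

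In the Boxers none of the 62 genes passed in limma. An unadjusted p under 0.05 was found for 3 of the 62 and for 446 of all 5240 genes. Few genes passed at all in Boxers, 0.0382% of all genes lower and 0.0191% higher. The median log2 change was -0.17 against -0.02 over all genes, and 46 of the 62 were negative. Its size depends on the scaling. Under quantile normalization the median was -0.05 against 0 over all genes, with 40 negative. With median centring it was -0.10 against 0.05, with 42 negative. All 4 Boxers lay below all controls in 11 of the 62 genes, or 17.7%, against 9.77% of all genes. The medians of single arrays were -0.23, -0.17, -0.12 and -0.14 in Boxers 1 to 4, so all 4 lay close to control P9, at -0.15. P9 was the lowest control in 47 of the 62 genes. By complex the medians ran from -0.26 for complex III to -0.06 for complex IV.

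The smallest p of each complex also failed the threshold in Boxers. NDUFS7 was lowest in the complex I core, with a log2 change of -0.48 (adjusted p 0.667), and signals of 9575, 10924, 10020 and 11049 that overlapped control P9 at 10696. SDHB was at -0.26 (0.818), UQCR11, a small subunit of complex III, at -0.28 (0.741), COX5A at -0.24 (0.83) and ATP5MC2 at -0.22 (0.84). NDUFB7 and NDUFAF7 were at -0.30 (0.812) and -0.43 (0.58), and in both all 4 Boxers were below all controls. For NDUFAF7, a factor of complex I assembly, these signals were 358, 419, 326 and 334 against 490, 501 and 472.

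In the paced mongrels 4 of the 62 genes fell in limma and 0 rose. That is 6.45%, near the 4.05% of all genes that fell, and 5.19% rose. The values were nonetheless mostly negative: the median log2 change was -0.32 against -0.04 over all genes, and 54 of 62 were negative. All 3 paced samples lay below all controls in 33 genes, or 53.2%, against 22.6% of all genes. The medians of single arrays were -0.41 in LV01, -0.29 in LV02 and -0.25 in LV04. This shift depends on the scaling, because under quantile normalization the members' median was -0.10 and that of all genes -0.06.

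COX8A had the smallest adjusted p of these genes in paced samples. Its signals were 5027, 4880 and 5145 in paced samples, 7749, 9121 and 7419 in controls and 7178 to 8806 in Boxers. The paced samples formed a narrow band below every other sample. It was 1.61-fold lower than in controls (log2 change -0.68 ± 0.15, adjusted p 0.0121), and -0.59 without P4, where it no longer passed. NDUFA2 had signals of 4670, 5666 and 5167 in paced samples against 8248, 9368 and 7493 in controls, without overlap. It fell by 0.69 ± 0.19 (adjusted p 0.0281), and its call was lost without P1 (-0.70), P4 (-0.61), LV01 (-0.62), LV02 (-0.76) or LV04 (-0.69).

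CYC1 fell by 0.69 ± 0.21 (adjusted p 0.0497) and COX15 by 1.11 ± 0.34 (adjusted p 0.049) in paced samples. Both calls were near the threshold and were lost without any 1 of the controls, paced samples or Boxers, with values from -0.78 to -0.59 for CYC1 and from -1.32 to -0.91 for COX15. COX15 signals were 138, 255 and 180 in paced samples against 396, 360 and 508 in controls, with LV01 the lowest. The smallest p of the other complexes did not pass, with NDUFS8 at -0.45 (0.10), SDHB at -0.60 (0.0599) and ATP5MC1 at -0.52 (0.0663). The count of 4 was 1 without P1 or any paced sample, 0 without P4 and 2 without any Boxer. It was 12 without K, 10 without L and 7 without R. Over all genes 518 fell without K, 356 without L, 294 without R and 96 without P4, in place of 212. The median log2 change of the 62 genes stayed at -0.32 without K, L or R, and without both L and R.

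In paced samples other probe sets of a few genes differed from the representatives. Dimmer probe sets of ATP5IF1, the inhibitor of ATP synthase, NDUFV3, an accessory subunit of complex I, and NDUFAF5, an assembly factor, rose by 1.16, 1.66 and 1.14 on the log2 scale, while their representatives had log2 changes of -0.32, -0.12 and 0.36. A second UQCRC1 probe set fell by 0.68. Of all 14302 tested probe sets 1212 rose and 535 fell in paced samples, with a median log2 change of 0.063. With the filter left off, which adds dimmer probe sets, 3491 of 23836 rose and 898 fell, with a median of 0.209.

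**Figure D5:**
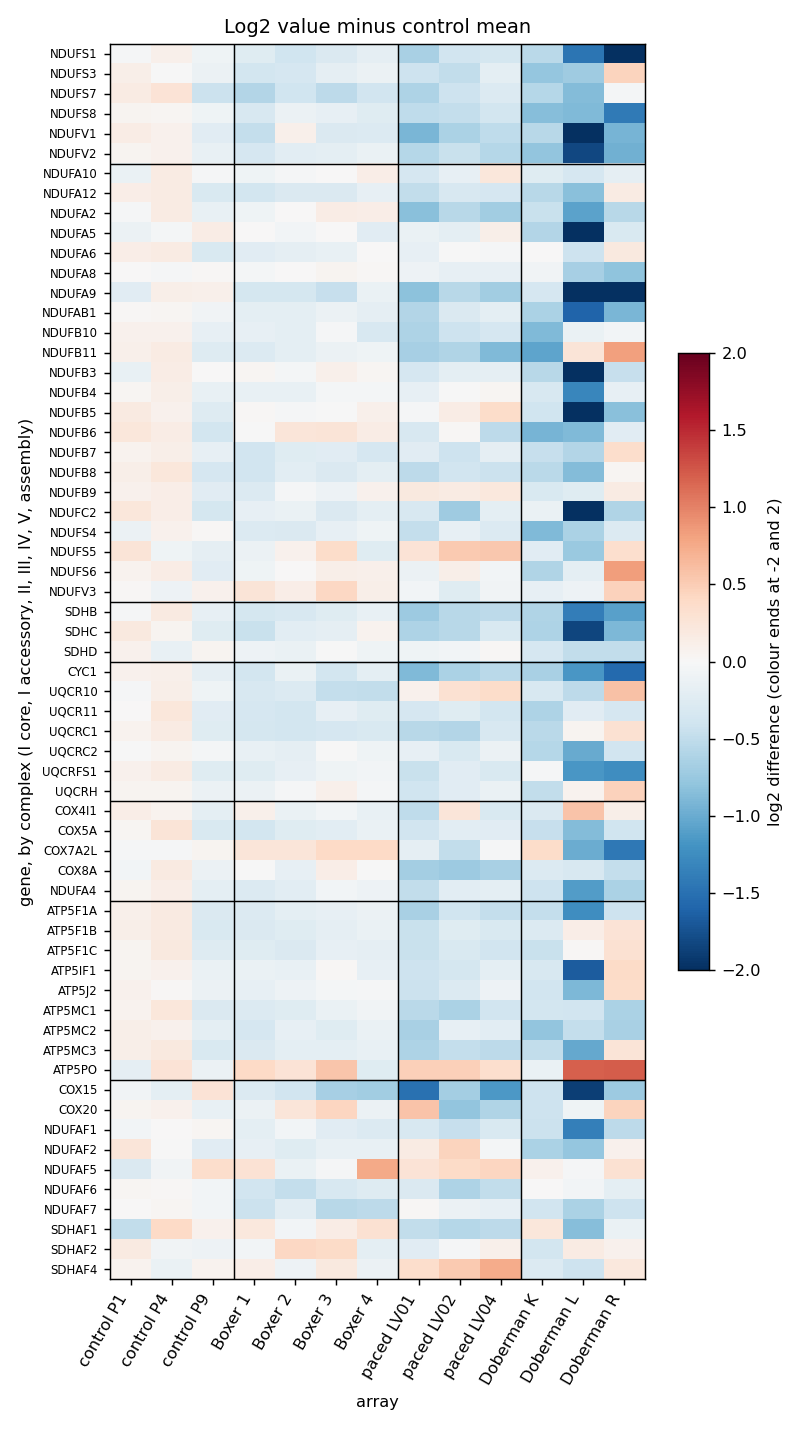
Log2 value minus the control mean of each tested gene (rows, by complex) on each of the 13 arrays (columns); blue is lower, red is higher, and colours end at -2 and 2. The Boxers are pale, the paced samples are mostly pale blue, Doberman K is more evenly blue, and L and R mix deep blue with red.

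The Dobermans were next compared directly with the Boxers, which tests whether their differences from the shared controls were unlike. Without healthy dogs of either breed this comparison cannot tell breed from disease. Of the 62 genes 21, or 33.9%, were lower in Dobermans in limma and 0 higher, against 17.4% of all genes lower and 16.8% higher. The median was -0.31 against 0.04 over all genes. NDUFS8 and NDUFV2 were 1.79-fold and 1.96-fold lower in Dobermans than in Boxers (adjusted p 0.00474 and 0.00685). NDUFAB1 was 1.84-fold lower (0.00839), CYC1 1.82-fold (0.00876), SDHB 1.69-fold (0.0102) and SDHC 1.90-fold (0.0155). By complex, 4 genes of the complex I core passed, 8 of its accessory subunits, 3 of complex II, 3 of complex III, 2 of complex IV and 1 assembly factor. In complex V 0 of 9 passed in limma, with ATP5MC2 nearest at -0.42 (adjusted p 0.0604), and other probe sets of ATP5F1A and ATP5F1C were lower. Over all 102 probe sets 36 were lower and 5 higher, where 1949 of all 14302 were lower and 3117 higher. The 5 belonged to NDUFA6 (log2 difference 0.70), NDUFB11 (0.48), NDUFS4 (0.74), NDUFS7 (0.80) and NDUFV1 (0.85), and NDUFV1 was thus called both ways, since its representative was lower. COX7A2L was 2.01-fold lower (0.0245), with K, at 3102, within the Boxers' range of 2857 to 3183. Without L and R its log2 difference was 0.04. The count of 21 lower was 9 without L, 13 without Boxer 3 and 5 without L and R. Without K 27 genes were lower and 5 higher, where 1415 of all genes were lower and 1419 higher. Over all genes 435 were lower without L and 586 without Boxer 3. With the GAPDH ratio as a covariate 0 passed in limma, with a median of -0.48 and 60 of the 62 negative, and over all genes 13 were lower in place of 912.

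Against the paced samples 7 of the 62 genes, or 11.3%, were lower in Dobermans and 0 higher, close to the 11.1% of all genes that were lower (13.6% were higher). These were NDUFS1, NDUFV2, NDUFS8, NDUFA9, NDUFB5, NDUFAB1 and the assembly factor SDHAF4. NDUFB5 was 2.80-fold lower (adjusted p 0.0224), with paced signals of 7500, 8502 and 9917 and Doberman signals of 5815, 1128 and 4305, without overlap. NDUFS8 was 1.51-fold lower (0.0236) and NDUFAB1 1.61-fold (0.0325). SDHAF4, which helps the flavin subunit of complex II to mature, was 1.63-fold lower (0.0234), at 520, 468 and 732 against 811, 918 and 1067. The count lower was 0 without LV02 or LV04, 2 without L, 3 without LV01, 4 without Boxer 1 or 3 and 11 without R. Without K 22 genes were lower and 6 higher, where 1188 of all genes were lower and 1117 higher. Over all genes 307 were lower without LV02, 321 without LV04, 425 without L and 455 without R, in place of 584.

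Between the Boxers and the paced samples, 2 of the 62 genes were higher in Boxers and 0 lower, against 5.84% of all genes higher and 8.38% lower. NDUFA2 was 1.67 times the paced level (adjusted p 0.0115), with 7816 to 9226 in Boxers and 4670 to 5666 in paced samples. COX8A was 1.59 times the paced level (0.00718). Its call held in all 24 alternatives, and that of NDUFA2 in 23, the exception being the fit without LV01 (log2 difference 0.67). The count higher in Boxers was 1 without LV01, 6 without K and 3 without L. It stayed at 2 without R, and without K, L or R another 2 genes were lower. Over all genes 155 were higher without LV01, 622 without K, 443 without L and 418 without R, in place of 306. By other, dimmer probe sets 7 genes were lower in Boxers, namely ATP5IF1 (log2 difference -1.26), NDUFA6 (-0.83), NDUFA8 (-1.86), NDUFAF5 (-1.27), NDUFS4 (-0.87), NDUFS7 (-1.18) and NDUFV3 (-1.31). Over all 102 probe sets 7 were thus lower and 2 higher. Of all 14302 tested probe sets 1842 were lower and 694 higher. With the filter left off, 4639 of 23836 were lower and 1081 higher.

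Other genes that serve the chain were looked at as lists. Of 21 tested genes in a broad list for electron carriers and ATP export, 12 fell in Dobermans, or 57.1% against 14.1% of all genes. In Boxers 0 fell, where 0.0382% of all genes did, and in paced samples 0 fell, against 4.05%. The genes that fell in Dobermans included COQ2, COQ6, COQ7, IMMT and CHCHD3. Cytochrome c, CYCS, did not pass there, at -0.39 (adjusted p 0.128). The ADP/ATP carriers SLC25A4, SLC25A5 and SLC25A6 did not pass either, at 0.04, -0.20 and 0.01. The largest falls in Dobermans were those of AIFM1, a flavoprotein of the intermembrane space that is needed to build complex I (log2 change -2.49), GPD2, the glycerol phosphate dehydrogenase (-1.73), and ETFDH, which passes electrons from fatty acid oxidation to ubiquinone (-1.57). Of 13 other assembly factors 5, or 38.5%, fell in Dobermans, among them UQCC1, for complex III, by 1.24, TMEM70, for complex V, by 1.01 and SURF1, for complex IV, by 0.79. UQCC1 and SURF1 also fell in paced samples, by 1.04 and 0.77, and 0 of the 13 passed in Boxers, where so few of all genes did.

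Of 10 tested regulators of mitochondrial genes, 1 fell in Dobermans and 1 rose, near the 14.1% and 11.9% of all genes. PPARGC1A, a coactivator of mitochondrial biogenesis, fell by 0.59 and POLG, the mitochondrial DNA polymerase, rose by 0.65. In paced samples GABPA, a factor that activates genes of the respiratory chain, fell by 1.25. In Boxers 0 passed. The medians of the 3 lists in Dobermans were -0.76 for the broad list of carriers and ATP export, -0.58 for assembly factors and -0.31 for regulators.

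Markers of other cells of the heart were set beside these values. The summed signal of the smooth muscle markers, 5 of 7 found, was 21647 to 32572 in controls, 41733 to 65939 in Dobermans, 31083 to 37838 in Boxers and 23062 to 28416 in paced samples. That of the fibroblast markers, 7 of 11 found, was 14543 to 23031, 21082 to 29874, 19313 to 40988 and 14989 to 19920 in the same order. For the macrophage markers, 9 of 9 found, it was 2546 to 4315, 2532 to 6727, 3500 to 9617 and 3496 to 3952. For the lymphocyte markers, 5 of 9 found, it was 889 to 1144, 1213 to 2607, 723 to 992 and 1286 to 1532. The smooth muscle sum was thus higher in every Doberman than in every control, and the lymphocyte sum in every Doberman and every paced sample. In limma 1 of 4 tested smooth muscle markers and 1 of 4 tested lymphocyte markers rose in Dobermans, where 11.9% of all genes did. In these 2 lists 0 fell. Of 6 tested fibroblast markers 1 rose and 0 fell, and of 7 tested macrophage markers 1 rose and 1 fell. In paced samples 1 tested lymphocyte marker rose and 1 fell. The lymphocyte signals were low, with CD8A under the filter, and the median signal of Doberman and paced arrays was also higher than in controls. The part of these cells in the Doberman and paced values was not tested. The endothelial sum (4 of 8 found) was 5896 to 7908 in controls, 4914 to 12805 in Dobermans, 5612 to 7578 in Boxers and 5160 to 6697 in paced samples. The adipocyte sum (2 of 5) was 55 to 387, 243 to 478, 315 to 643 and 304 to 600, and that of atrial muscle (3 of 6) 10517 to 13595, 12242 to 18077, 9886 to 19608 and 11158 to 17186, in the same order, and the Dobermans overlapped the controls in all 3 lists.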

How the data were processed

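RNA of 13 dog heart tissue samples was hybridised to 1 Affymetrix canine array each, after total RNA extraction and 1-cycle labelling, per the labels' protocols. The deposited linear signal intensities were made by the authors with MAS5, which scales each array, in a version not given in the sources used here. Genes come from the platform annotation of the array (10549 probe sets with 1 symbol, 138 with several, 13149 with none), and 116 of the 118 probe sets were matched by gene identifier to the reference gene table (assembly UU_Cfam_GSD_1.0), with 0 symbols changed. Another 4 probe sets with several symbols were left out. The members and gene lists were chosen with earlier results of these data known. No sequence, promoter motif or coordinate was used here.

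Of 23913 probe sets, 77 controls were set aside. Values were log2(signal + 16), so changes of dim probe sets are understated. Probe sets under the 40th percentile of mean log2 value (6.951, a signal of 107.7) were dropped, leaving 14302 to test. limma 3.58.1 (R 4.3.3) fitted 1 mean per group to all 13 arrays (9 residual degrees of freedom, intensity trend), with Benjamini-Hochberg adjustment at 0.05 over all tested probe sets in each of 6 comparisons. Adjusted p-values, also those in brackets, come from this test. Errors are SE. The 3 comparisons with the controls share them. Named were, in each comparison and complex, up to 6 genes each way that passed, by size, or else the smallest p; SDHB to SDHD, the isoform pairs, NDUFA4 and the 3 brightest genes of each complex always; and up to 3 that passed of each other list. NDUFS4, NDUFB10, NDUFC1, NDUFA8, COX7A2L against controls, ATP5PO and the genes named for their other probe sets were chosen after their values were seen. The fit was tested on simulated data that gave all groups the same spread. That test could not show what the wider spread of Dobermans L and R does to the calls. Alternatives left out each sample, or L and R, and changed scaling, pseudocount, filter, weights, covariate, groups fitted and the handling of probe sets. Figures used Python 3.11.15 and matplotlib 3.10.9.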

Additional observations from a re-analysis of the deposited data

Results flagged for a closer look

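COX4I2 had a signal of 139.4 in Boxer 3, far from the other 3 Boxers at 32 to 43. It was 1 such sample among 44 genes looked at in the Boxers, where chance alone would single out about 1 in 20, and the gene lies under the filter on low signals.

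The changes of Dobermans and Boxers from the shared controls differed for 21 of the 62 genes in limma, by the direct test of Dobermans against Boxers. That test cannot tell breed from disease. The log2 differences were -1.17 for NDUFS1, -0.97 for NDUFV2, -0.96 for NDUFV1 and -0.84 for NDUFS8 in the complex I core. Among its accessory subunits they were -2.47 for NDUFA9, -1.35 for NDUFB5, -1.18 for NDUFB3, -1.09 for NDUFA5, -0.88 for NDUFAB1, -0.83 for NDUFB6, -0.74 for NDUFA2 and -0.52 for NDUFA8. In complex II they were -0.92 for SDHC, -0.75 for SDHB and -0.36 for SDHD, and in complex III -0.86 for CYC1, -0.68 for UQCRFS1 and -0.55 for UQCRC2. COX7A2L was at -1.01, NDUFA4 at -0.56 and NDUFAF1 at -0.59.

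Dobermans and paced samples differed for 7 genes, with log2 differences of -0.98 for NDUFS1, -0.66 for NDUFV2, -0.60 for NDUFS8, -2.11 for NDUFA9, -1.49 for NDUFB5, -0.69 for NDUFAB1 and -0.70 for SDHAF4. Boxers and paced samples differed for 2, NDUFA2 at 0.74 and COX8A at 0.67. Dobermans L and R had GAPDH 3'/5' ratios of 2.10 and 3.62, and the part of RNA quality in these differences was not tested.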

How the results depend on the processing

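Counts of genes that passed in either direction, of the 62 unless stated, are given in the order Doberman against control (23), paced against control (4), Doberman against Boxer (21), Doberman against paced (7) and Boxer against paced (2). They became 40, 40, 45, 1 and 41 with median centring, which moved the median of all genes from 0.04 to -0.40 in Dobermans and from -0.04 to -0.55 in paced samples. The members' medians were then -0.90 and -0.83. With only the compared groups fitted the counts of the 62 were 0, 19, 7, 0 and 18. All genes gave 3, 559, 344, 44 and 892 lower and 7, 647, 404, 85 and 876 higher. With the GAPDH ratio as covariate the counts of the 62 were 1, 11, 0, 3 and 7. All genes gave 21, 458, 13, 158 and 624 lower and 19, 449, 9, 182 and 557 higher. With every one of 102 probe sets counted they were 36, 8, 41, 23 and 9. For Doberman against paced 1651 of all 14302 tested probe sets were lower and 1863 higher. Without L and R they were 7, 26, 5, 5 and 16. Array weights gave 25 in the paced comparison and 12 in both last ones. All genes gave 722, 702 and 865 lower there and 674, 626 and 880 higher. Quantile normalization gave 21 for Doberman against paced, and the mean over probe sets gave 16 there and 4 for Boxer against paced. For Doberman against paced, all genes gave 764 and 729 lower in these settings and 790 and 672 higher. For Boxer against paced the mean over probe sets gave 472 of all genes lower and 269 higher. Without a filter Boxer against paced gave 4 and paced against control 6. All genes gave 840 and 322 lower there and 417 and 599 higher. Paced against control gave 2 with a pseudocount of 1 and 1 with a filter at the 70th percentile. All genes gave 208 and 60 lower in these settings and 260 and 34 higher.

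With 1 sample left out the counts ran from 7 to 32, 0 to 12, 9 to 32, 0 to 28 and 1 to 8. Over all genes those lower ran from 288 to 1291, 96 to 518, 435 to 1415, 307 to 1188 and 182 to 687. Those higher ran from 178 to 1286, 96 to 523, 397 to 1419, 459 to 1117 and 155 to 622. Boxer against control stayed at 0 in every alternative. Reversed log2 values were those of UQCRFS1 (0.10 without L and R, 0.00 with the GAPDH covariate) and COX7A2L (0.04 without L and R) between Doberman and Boxer, and of NDUFS1 (0.06 with the covariate), NDUFA9 (0.35 without L and R, 0.14 with the covariate) and ATP5F1B (-0.27 with quantile normalization) between Doberman and paced. Against control, NDUFB11 was at -1.05 in K alone and UQCRH at -0.60 as a mean over probe sets. The cause was not tested. No paired analysis was possible because the groups share no replicate numbers.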
